A study of Mus musculus with 9 samples.

Results

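The 10 genes described here encode granule proteins of neutrophils, the calcium-binding S100 proteins of myeloid cells and genes that are high in mature neutrophils. They were chosen by name from the 53801 genes of the count files, and each was found by its Ensembl identifier. Mpo and Elane represent the primary (azurophil) granule. Camp, Ngp, Ltf and Lcn2 represent the secondary (specific) granule. S100a8, S100a9, Retnlg and Csf3r represent the S100 and mature neutrophil genes. Each class was compared across 9 RNA-seq libraries: 3 of sham blood, 3 of stroke blood and 3 of stroke brain.

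All libraries came from male C57BL/6J mice aged 9 weeks. Stroke was induced by permanently occluding the distal middle cerebral artery and the common carotid artery on the left side (dMCAO), and stroke blood and stroke brain were taken 5 days later. The day for sham blood was not named in the sources used here. Cells were sorted as CD11c-Ly6G-CD11b+CD45high, a gate set for monocytes/macrophages and against cells with surface Ly6G, the antigen of mature mouse neutrophils. Each blood library held the cells of 1 mouse, and each brain library the pooled cells of 5 mice, so the spread among brain libraries is a spread among pools. Blood cells were first isolated as the mononuclear fraction on Ficoll and brain cells on Percoll, so tissue and isolation method cannot be told apart.

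Neutrophils are made in the bone marrow, and their granules are filled in sequence. Primary granule proteins are transcribed early, in promyelocytes, secondary granule proteins later, in myelocytes and metamyelocytes, and genes such as Retnlg and Csf3r are highest in mature cells. Some of the genes are not restricted to neutrophils: S100a8, S100a9 and Csf3r are also expressed by classical monocytes, and Lcn2 can be induced in many cell types by inflammation.

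Total counts ranged from 18475118 to 22623578 per library, and levels are given as counts per 1000000 counts of a library (CPM), where 3 counts correspond to 0.133 to 0.162 CPM. Ly6g, whose product was excluded by the sort, had at most 0.756 CPM in any library. Itgax encodes CD11c, which the sort also excluded. It had 141, 78.9 and 85.6 CPM in brain libraries 1, 2 and 3 and at most 19.4 CPM in any blood library. Low RNA was thus not seen for both excluded proteins. The 6 monocyte markers summed to 6987 to 7229 CPM in sham blood, 7202 to 8127 CPM in stroke blood and 6624 to 8819 CPM in stroke brain. These sums held opposite moves and do not show an equal monocyte content. In sham blood, stroke blood and brain the mean of Ly6c2 was 2214, 2498 and 894 CPM, and that of Nr4a1 was 204, 253 and 1684 CPM. Nr4a1 alone took 3400 CPM in brain library 1. Marker sums of other cell types differed between brain and blood: 5 microglia markers summed to 518 to 1611 CPM in stroke brain against 8.95 to 41.6 CPM in sham blood and 20.0 to 30.2 CPM in stroke blood, and 7 erythroid markers summed to 4.16 to 14.5 CPM in stroke brain against 1223 to 34182 CPM in blood. Sham blood library 1 stood apart with the lowest erythroid sum of the blood, and sham blood library 3 carried several of the members at a higher level than every other library, as given below. In bulk libraries, fewer cells of a type and less RNA per cell cannot be told apart.

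The primary granule genes were higher in every stroke brain library than in every blood library. Mpo, myeloperoxidase, lies on chr11:87793581-87804413 (GRCm38, plus strand; ENSMUSG00000009350). Mpo had 158, 45.0 and 18.9 CPM in brain libraries 1, 2 and 3, against 0.289, 0.603 and 1.46 CPM in stroke blood and 0, 0.329 and 0.866 CPM in sham blood. All 3 brain libraries were above all 6 blood libraries, in which no more than 27 reads were counted. The mean level was 74.0 ± 74.0 CPM in stroke brain, 0.783 ± 0.604 CPM in stroke blood and 0.398 ± 0.437 CPM in sham blood (SD, n = 3 each). Mpo was upregulated in the brain by 6.41 on the log2 scale over stroke blood (SE 0.89, adjusted p = 0.000877 in edgeR's quasi-likelihood test), and leaving out any 1 of the 6 libraries kept the call, with log2 fold changes from 5.22 to 7.18. Exons of Mpo overlap 512 bases of Gm11505, an antisense gene, and the strand setting of the counting was not given, so a share of antisense reads cannot be told apart.

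Elane, neutrophil elastase (chr10:79886247-79888215, plus strand; ENSMUSG00000020125), is the other primary granule gene. Elane had 162, 11.1 and 17.9 CPM in brain libraries 1, 2 and 3, against 4.05, 1.07 and 2.05 CPM in stroke blood and 1.80, 2.49 and 7.09 CPM in sham blood. Brain library 1 was far above the other brain pools, and the lowest brain value still exceeded the highest blood value. The log2 fold change over stroke blood was 4.57 (SE 1.02, adjusted p = 0.00911 in edgeR). Without brain library 1 it fell to 2.46 (adjusted p = 0.00705), and without stroke blood library 3 the call was lost at a log2 fold change of 4.46 (adjusted p = 0.0544).

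Of the secondary granule genes, the 3 that lie within 1.2 Mb of each other on chromosome 9 were upregulated in the brain. They are Camp, the cathelicidin antimicrobial peptide (chr9:109847379-109849617, minus strand; ENSMUSG00000038357), Ngp, neutrophilic granule protein (chr9:110419747-110423012, plus strand; ENSMUSG00000032484), and Ltf, the iron-binding lactoferrin (chr9:111019271-111042767, plus strand; ENSMUSG00000032496). Camp had 83.6, 33.4 and 49.5 CPM in the brain libraries, against 0, 0.417 and 5.40 CPM in stroke blood and 9.68, 1.83 and 1.79 CPM in sham blood. Ngp had 210, 170 and 328 CPM in the brain libraries, against 0, 0.696 and 19.5 CPM in stroke blood and 35.3, 8.22 and 8.55 CPM in sham blood. Ltf had 24.5, 67.1 and 71.3 CPM in the brain libraries, against 0, 0.325 and 3.56 CPM in stroke blood and 21.4, 2.87 and 4.22 CPM in sham blood. In all 3 genes no brain library overlapped a blood library, stroke blood library 3 was the highest of stroke blood and library 1 the highest of sham blood, while stroke blood library 1 had no count of any of them.

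Against stroke blood the log2 fold change was 4.69 for Camp (SE 1.06, adjusted p = 0.0094), 4.97 for Ngp (SE 1.28, adjusted p = 0.0169) and 5.26 for Ltf (SE 1.02, adjusted p = 0.00457), all in edgeR. Camp and Ltf kept their calls whichever of the 6 libraries was left out. The values depended on stroke blood library 3: without it they were 7.83 for Camp, 9.20 for Ngp and 8.16 for Ltf, since the remaining stroke blood libraries held almost none of these reads. Ngp was not called without stroke blood library 2 (adjusted p = 0.0543) or in DESeq2 (adjusted p = 0.0600).

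Lcn2, lipocalin 2, which binds bacterial siderophores (chr2:32384633-32388252, minus strand; ENSMUSG00000026822), did not share this pattern. Lcn2 had 18.1, 21.5 and 50.3 CPM in the brain libraries, 18.7, 6.86 and 18.9 CPM in stroke blood and 12.8, 52.2 and 457 CPM in sham blood. The brain and stroke blood libraries overlapped, and the highest value by far was that of sham blood library 3. Its log2 fold change between brain and stroke blood was 0.86 (SE 0.47, adjusted p = 0.195), which did not pass the threshold, and it was 0.46 without stroke blood library 2 and 0.26 without brain library 3.

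S100a8 (chr3:90668978-90670035, plus strand; ENSMUSG00000056054) and S100a9 (chr3:90692632-90695721, minus strand; ENSMUSG00000056071) are neighbours, 22597 bases apart, and encode the subunits of calprotectin, a calcium- and metal-binding heterodimer. S100a8 had 255, 60.1 and 155 CPM in the brain libraries, 29.9, 13.5 and 44.2 CPM in stroke blood and 41.2, 77.5 and 956 CPM in sham blood. S100a9 had 207, 70.9 and 170 CPM in the brain libraries, 3.18, 2.92 and 28.1 CPM in stroke blood and 33.8, 26.0 and 258 CPM in sham blood. For both genes every brain library exceeded every stroke blood library, whereas sham blood library 3 was above all other libraries. S100a8 was upregulated by 2.26 (log2, SE 0.54, adjusted p = 0.0120 in edgeR) and S100a9 by 3.54 (SE 0.85, adjusted p = 0.0123) over stroke blood. The call of S100a8 was lost without stroke blood library 1 (adjusted p = 0.0552) and in the fit of all 9 libraries (adjusted p = 0.12). Without stroke blood library 3 the value of S100a9 was 5.44.

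Retnlg and Csf3r, the mature neutrophil genes, were not called between brain and stroke blood. Retnlg, resistin-like gamma (chr16:48872608-48874498, plus strand; ENSMUSG00000022651), had 195, 368 and 536 CPM in the brain libraries, 8.68, 290 and 102 CPM in stroke blood and 97.4, 265 and 456 CPM in sham blood. The 3 groups overlapped, and stroke blood library 1 was the lowest of all. The log2 fold change of Retnlg between brain and stroke blood was 1.31 (SE 0.87, adjusted p = 0.284), with 0.74 without stroke blood library 1 and 2.49 without stroke blood library 2 (adjusted p = 0.0893). Csf3r, the receptor for the granulocyte growth factor G-CSF (chr4:126024550-126044440, plus strand; ENSMUSG00000028859), had 264, 225 and 291 CPM in the brain libraries, 206, 337 and 243 CPM in stroke blood and 269, 295 and 330 CPM in sham blood. These values overlapped in all groups, with a log2 fold change of -0.16 between brain and stroke blood (SE 0.20, adjusted p = 0.568).

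**Figure D1:**
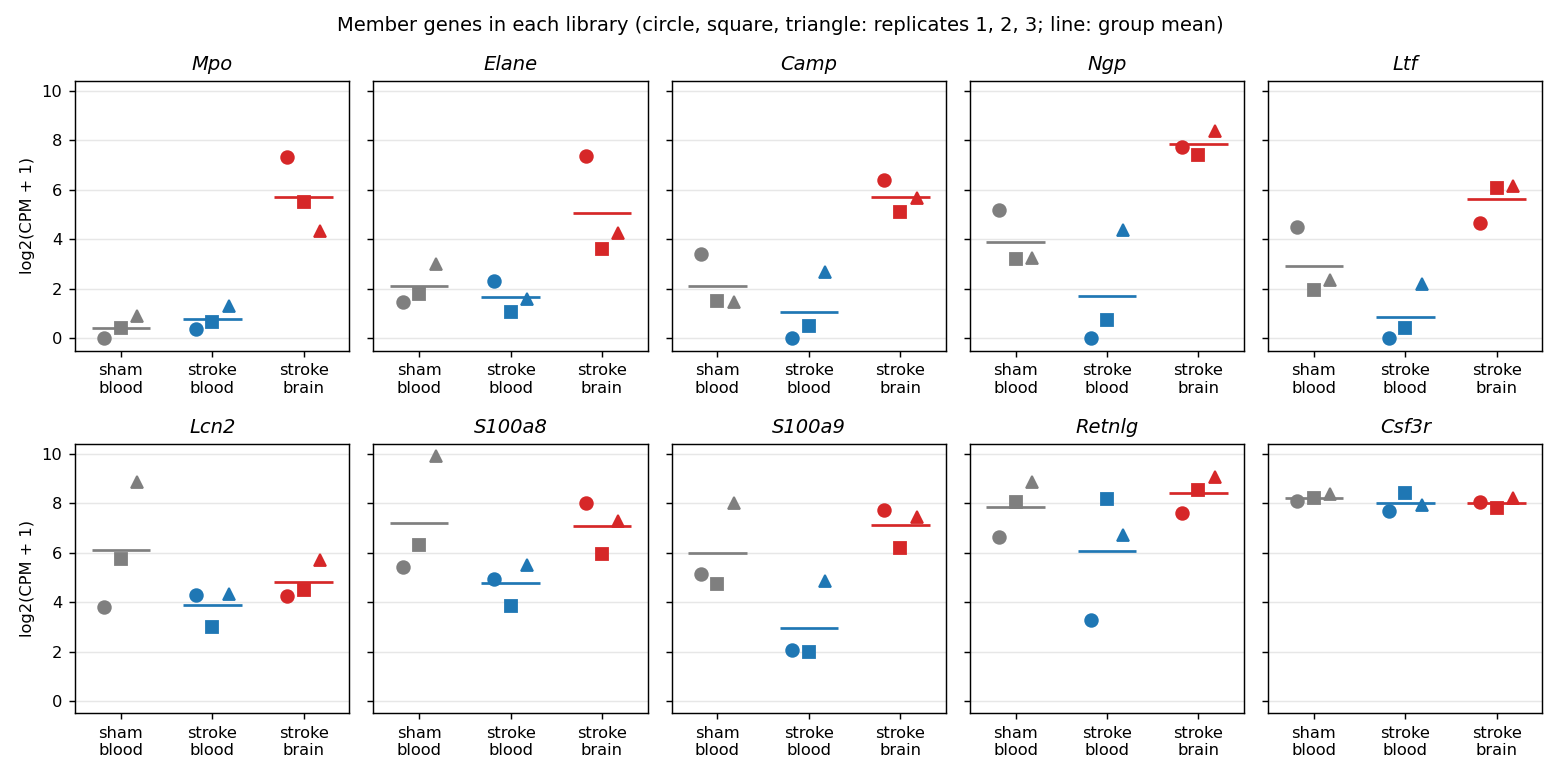
Level of each of the 10 members in the 9 libraries, as log2(CPM + 1), with a point per library (circle, square and triangle for replicates 1, 2 and 3) and a line at the group mean of the plotted values. The stroke brain points lie above all blood points for Mpo, Elane, Camp, Ngp and Ltf, whereas Csf3r stays between 206 and 337 CPM in every library.

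Over stroke blood, 7 of the 10 members were upregulated in the brain and none was downregulated. Of all 13189 genes tested, 13.1% were upregulated and 7.86% downregulated at the same thresholds (absolute log2 fold change above 1, adjusted p below 0.05). By class, these were 2 of 2 primary granule genes, 3 of 4 secondary granule genes and 2 of 4 S100 and mature genes. The median log2 fold change was 5.49 for the primary granule class, 4.83 for the secondary granule class and 1.78 for the S100 and mature class, beside 0.062 over all genes tested. The primary granule median was 3.84 without brain library 1, and the secondary granule median 8.0 without stroke blood library 3. The same 7 members were those with no overlap between brain and stroke blood libraries, against 31.9% of all genes tested that did not overlap and were higher in the brain.

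Stroke blood and sham blood were then compared to see whether the members differed in the circulation after dMCAO. No member passed the adjusted threshold in edgeR or in DESeq2, although Mpo and Ngp had no adjusted p in DESeq2. Of all 12664 genes tested in edgeR, 1 passed (0.0079%). Unadjusted p was below 0.05 for 4 of the 10 members, all lower in stroke blood, beside 12.5% of all genes tested and 5.97% that were lower. These were Ltf, with a log2 fold change of -2.85 (SE 1.23, adjusted p = 0.394), Lcn2, with -3.51 (SE 1.09, adjusted p = 0.307), S100a8, with -3.57 (SE 1.08, adjusted p = 0.299), and S100a9, with -3.16 (SE 1.11, adjusted p = 0.33). All members overlapped between stroke and sham blood, whereas 18.7% of the genes tested did not. Sham blood library 3 set the size of these values for Lcn2, S100a8 and S100a9: without it the log2 fold changes were -1.08, -0.97 and -1.34. Other libraries moved them the other way or moved Ltf: without stroke blood library 3, S100a9 was at -5.11 and Ltf at -5.80, and without sham blood library 1, Ltf was at -1.40. The edgeR fit without a filter on low counts called Ltf, Lcn2, S100a8 and S100a9 lower in stroke blood, with adjusted p from 0.000268 to 0.0279.

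The remaining members also lay within the spread of the blood libraries. The log2 fold change between stroke and sham blood was 1.03 for Mpo (SE 1.03), -0.62 for Elane, -1.16 for Camp, -1.32 for Ngp and -0.99 for Retnlg. Single libraries moved these values many-fold. Without stroke blood library 3, Camp was at -4.35, Ngp at -5.60 and Mpo at 0.20, whereas without sham blood library 1, Camp was at 0.15 and Ngp at -0.26. Without sham blood library 3, Mpo was at 2.25, Elane at 0.19 and Retnlg at -0.40. Elane was at -1.25 without stroke blood library 1 and Retnlg at -2.27 without stroke blood library 2, and none of these values was called. Csf3r had the smallest difference, -0.15 (SE 0.20, adjusted p = 0.766). By class the medians were 0.20 for the primary granule genes and -2.08 for both the secondary granule and the S100 and mature genes, beside -0.032 over all genes tested. These medians rested on single libraries as well: the primary granule median was 1.22 and the S100 and mature median -0.69 without sham blood library 3, and the secondary granule median was -0.83 without sham blood library 1 and -4.98 without stroke blood library 3.

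Against sham blood, Mpo, Elane, Camp and Ngp were upregulated in the brain, and the other 6 members did not pass the threshold. This comparison shares the brain libraries with the first and the sham blood libraries with the second, so the values are not independent of those above. Mpo was upregulated by 7.42 on the log2 scale (SE 1.12, adjusted p = 0.00497 in edgeR), Elane by 3.93 (SE 1.09, adjusted p = 0.0411), Camp by 3.51 (SE 0.71, adjusted p = 0.0141) and Ngp by 3.64 (SE 0.62, adjusted p = 0.00776). Mpo and Ngp kept their calls whichever of the 6 libraries was left out, although Ngp was not called in the fit of all 9 libraries (adjusted p = 0.0612). Camp lost its call without sham blood library 3 (adjusted p = 0.0507), and Elane kept its own in only 2 of these 6 fits, with a log2 fold change of 1.82 without brain library 1 (adjusted p = 0.0746). Ltf did not overlap between the groups, with a log2 fold change of 2.39 (SE 0.78, adjusted p = 0.067). Without sham blood library 1 this value was 3.83 and was called (adjusted p = 0.00685).

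S100a8 and S100a9 depended on sham blood library 3 in this comparison. With all libraries the log2 fold change between brain and sham blood was -1.33 for S100a8 (SE 1.09, adjusted p = 0.426) and 0.36 for S100a9 (SE 0.84, adjusted p = 0.793). Without that library S100a8 turned to 1.28 (adjusted p = 0.203) and S100a9 to 2.19 (adjusted p = 0.0348). Lcn2 was at -2.66 (SE 1.14, adjusted p = 0.142) with all libraries and at -0.22 without sham blood library 3, and it was called lower in the brain without sham blood library 1 (-3.21, adjusted p = 0.0479). Retnlg was at 0.31 (SE 0.55, adjusted p = 0.728) and Csf3r at -0.32 (SE 0.15, adjusted p = 0.176). In all, 4 of the 10 members were upregulated and none was downregulated, beside 9.75% and 3.67% of the 13020 genes tested. The 5 members Mpo, Elane, Camp, Ngp and Ltf had no overlap with sham blood and were higher in the brain, as were 27.4% of all genes tested. The class medians were 5.68 for the primary granule genes, 2.95 for the secondary granule genes and -0.006 for the S100 and mature genes, beside 0.01 over all genes. The S100 and mature median was 1.10 without sham blood library 3, the secondary granule median 4.26 without sham blood library 1 and the primary granule median 4.03 without brain library 1.

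**Figure D2:**
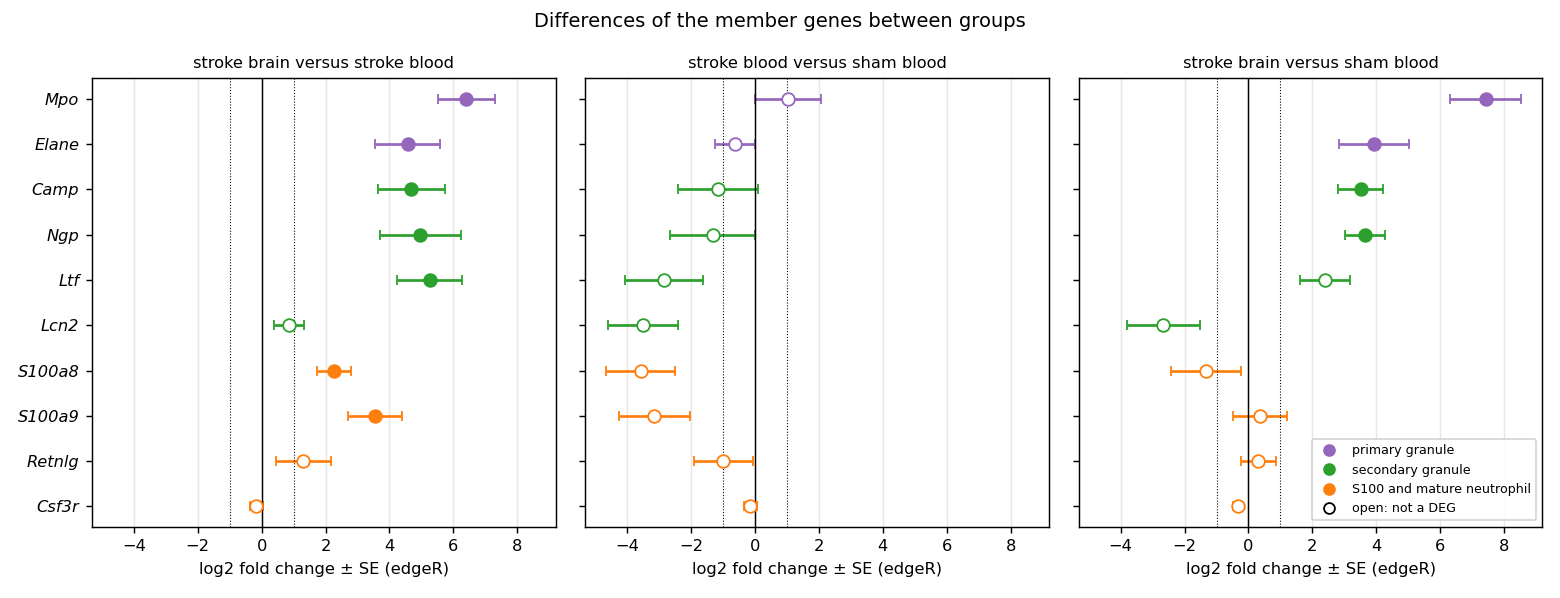
Log2 fold changes of the 10 members with their standard errors, derived from the F statistic of the edgeR test, in the 3 comparisons, ordered by class, with dotted lines at -1 and 1. Filled points passed an absolute log2 fold change above 1 with an adjusted p below 0.05 in edgeR: 7 members between brain and stroke blood, none between the blood groups and 4 between brain and sham blood.

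Summed over the members of each class, the primary granule genes took 321, 56.1 and 36.8 CPM in brain libraries 1, 2 and 3, against 4.34, 1.67 and 3.51 CPM in stroke blood and 1.80, 2.82 and 7.96 CPM in sham blood. The secondary granule genes took 336, 293 and 499 CPM in the brain, 18.7, 8.30 and 47.4 CPM in stroke blood and 79.1, 65.1 and 471 CPM in sham blood. The S100 and mature genes took 921, 724 and 1152 CPM in the brain, 248, 643 and 417 CPM in stroke blood and 442, 664 and 2000 CPM in sham blood. Only the primary granule sum was higher in every brain library than in every blood library. The brain pools also differed in composition: the ratio of the primary to the secondary granule sum was 0.954 in brain library 1, 0.192 in library 2 and 0.0736 in library 3, against 0.0169 to 0.0433 in sham blood and 0.0740 to 0.232 in stroke blood. The ratio of the secondary granule to the S100 and mature sum was 0.365, 0.404 and 0.434 in the brain libraries, above its highest value in blood, 0.236 in sham blood library 3.

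**Figure D3:**
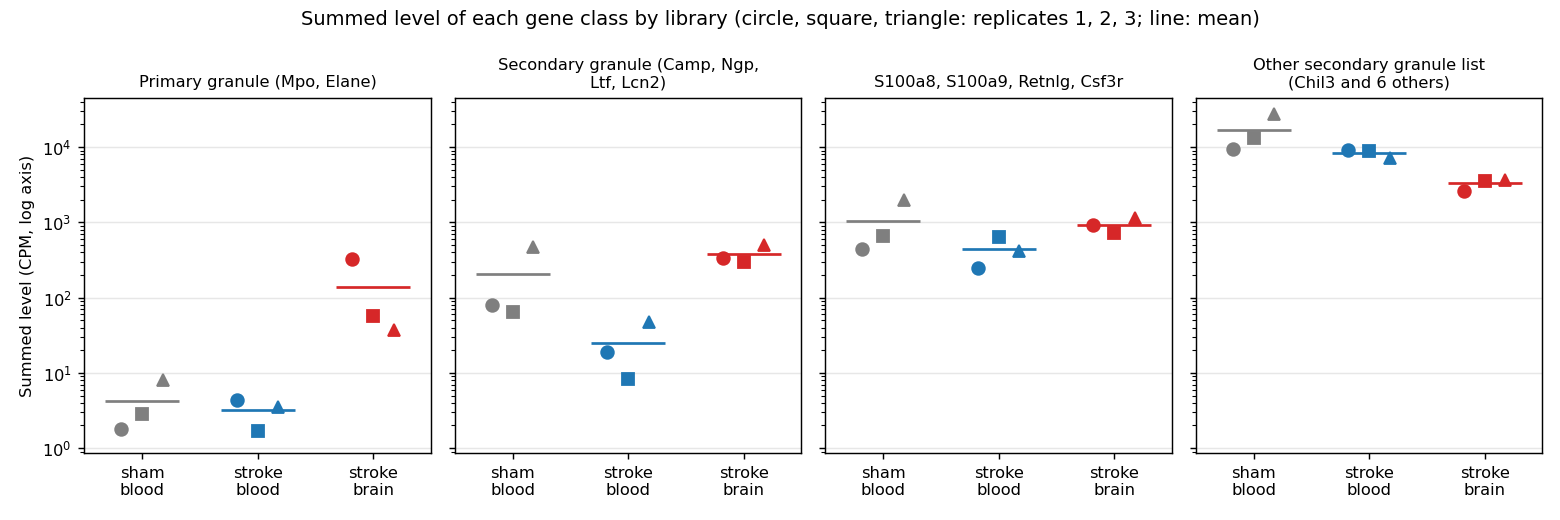
Sum of CPM, on a log axis, over the 2 primary granule, 4 secondary granule and 4 S100 and mature genes and over the 7 genes of the other secondary granule list, with a point per library (circle, square and triangle for replicates 1, 2 and 3) and a line at the mean. The primary granule sum lies between 36.8 and 321 CPM in the brain and at 7.96 CPM or below in all blood libraries, while the sums of the other member classes overlap between brain and sham blood, and the sum of the other secondary granule list is lowest in the brain, at 2618 to 3702 CPM.

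Levels of different members were compared per kilobase of exon, since longer genes collect more reads. In the brain the order was Retnlg (617 CPM per kb), S100a9 (287), S100a8 (226), Ngp (193), Camp (73.2), Csf3r (72.0), Elane (64.9), Mpo (21.6), Ltf (15.7) and Lcn2 (11.4). Of these neighbours, only Ngp and Camp had libraries that did not overlap. In stroke blood Retnlg (225 CPM per kb) and Csf3r (72.6) came first, and Ltf (0.376) and Mpo (0.229) last, with only Elane (2.43) and Ltf separated from each other. In sham blood S100a8 (516 CPM per kb) and Retnlg (460) came first and Mpo (0.116) last, with only Ltf (2.75) and Mpo separated. The transcript ratio of S100a8 over S100a9, in CPM per kb, was 0.925, 0.637 and 0.683 in the brain libraries, 7.07, 3.47 and 1.18 in stroke blood and 0.917, 2.24 and 2.79 in sham blood. Protein levels of these calprotectin subunits were not measured.

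Within groups, the members other than Csf3r varied more than the median gene. The SD of log2(CPM + 1) among the stroke blood libraries was 2.33 for Ngp and 2.52 for Retnlg, among the brain libraries 2.01 for Elane and among the sham blood libraries 2.55 for Lcn2. The median SD over the 8184 genes with a mean of at least 8 CPM was 0.20 in sham blood, 0.23 in stroke blood and 0.21 in the brain. Csf3r varied least of the members in every group, with SDs of 0.15, 0.36 and 0.18 in sham blood, stroke blood and brain, while no SD of another member was below 0.45.

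Single libraries stood out in different sets of members, which did not always follow the classes. Sham blood library 3 had 16.1 times the S100a8, 14.1 times the Lcn2 and 8.63 times the S100a9 level of the other sham blood libraries, yet its Camp, Ngp and Ltf were not raised. Lrg1 and Wfdc21, genes of the mature neutrophil list, stood in the same library at 21.2 and 19.7 times the mean of the others. That list did not rise as a block. In sham blood libraries 1, 2 and 3 Il1r2 (18.2, 17.4 and 46.0 CPM) and Slpi (243, 237 and 416 CPM) rose less in library 3. Hdc (6.96, 4.65 and 3.19 CPM) was lowest there, and G0s2 (6.96, 19.3 and 8.01 CPM) was highest in library 2. Sham blood library 1 instead had 5.35 times the Camp, 4.20 times the Ngp and 6.04 times the Ltf level of the others. Stroke blood library 3 had 25.9 times the Camp, 56.0 times the Ngp and 21.9 times the Ltf level of the other stroke blood libraries, together with 9.19 times the S100a9 level. Brain library 1 had 11.2 times the Elane and 4.95 times the Mpo level of the other brain pools. In it Ms4a3, of the other primary granule list, was at 8.39 times the mean of the other pools. That list did not rise evenly. In brain libraries 1, 2 and 3 Prss57 had 3.79, 0.354 and 0.416 CPM. Prtn3 was at 2.66 times the mean of the other pools in library 1. Ctsg, with 8.26, 8.31 and 5.18 CPM, was not highest there. The eosinophil granule genes Epx and Prg2 were in brain library 1 at 7.58 and 4.69 times the mean of the other pools. The eosinophil markers did not rise as a block either. In brain libraries 1, 2 and 3 Ccr3 had 13.4, 39.6 and 50.4 CPM, and Siglecf was also lowest in library 1. Il5ra (8.74, 7.07 and 5.64 CPM) was highest in library 1.

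Over the deviations of the 9 libraries from their group means, in log2(CPM + 1), Pearson's r was 0.92 between Camp and Ngp, 0.83 between Ngp and Ltf and 0.70 between Camp and Ltf. It was 0.87 between Lcn2 and S100a8, 0.85 between S100a8 and S100a9, 0.75 between Mpo and Elane and 0.83 between Retnlg and Csf3r. Lcn2 was the secondary granule gene that varied apart from the rest of its class, at -0.38 with Camp and -0.30 with Ltf. These are descriptions over 9 libraries that share their group means and totals, and single libraries such as sham blood library 3 weigh heavily in them.

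**Figure D4:**
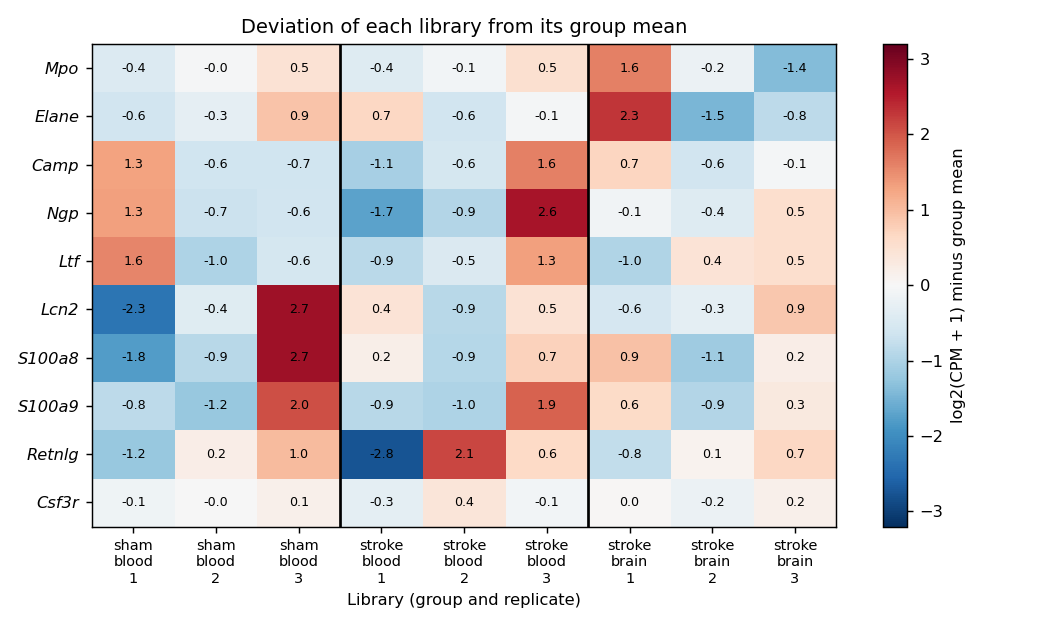
Deviation of each library from its group mean in log2(CPM + 1), for the 10 members (rows, ordered by class) in the 9 libraries (columns); colours and printed values give the deviation. Sham blood library 3 is high in Lcn2, S100a8 and S100a9, stroke blood library 3 in Camp, Ngp and Ltf, and brain library 1 in Mpo and Elane.

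The genes with the pattern most like each member over all 9 libraries, by Pearson's r of log2(CPM + 1) among 8184 genes with a mean of at least 8 CPM, were mostly outside the granule gene lists. For Mpo they were Fam110a and Prg2 (both r = 0.99) and Klhl2 (0.98), and Prg2 encodes eosinophil major basic protein. For Elane they were Cxcr4, Klf9 and Ass1 (all 0.95), and Cxcr4 encodes the receptor that retains neutrophils and their precursors in the marrow. For Camp they were Clec4d (0.98), Gm6977 and Nup98 (both 0.97), for Ngp Rnf121 (0.98), Clec4d (0.97) and Gnaq (0.96), and for Ltf Rnf121, Ssr1 (both 0.97) and Med1 (0.96). Lcn2 was most like Wfdc21 (0.92), Ddost (0.90) and Plpp5 (0.89), S100a8 like Gtf2e1 (0.94), Plpp5 and Rpn2 (both 0.93), and S100a9 like Ap2b1 (0.92), Rpap1 and Mcm4 (both 0.91). Retnlg was most like Ccr3 (0.97), the eotaxin receptor of eosinophils, Zbtb43 (0.96) and Mmp9 (0.95), and Csf3r like Aco1 (0.95), Dock2 (0.92) and Fam53b (0.91). Over 9 libraries in 3 groups, a shared difference between brain and blood alone gives a high r.

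Other genes of the granule and neutrophil programs did not follow the members as a block. Of 4 genes in the other primary granule list, 3 were tested between brain and stroke blood and 2 were upregulated. These were Ctsg, cathepsin G, with 8.26, 8.31 and 5.18 CPM in the brain libraries and 1.03 to 1.54 CPM in stroke blood (log2 fold change 2.38, SE 0.39, adjusted p = 0.00213 in edgeR), and Ms4a3, with 9.12, 1.02 and 1.16 CPM in the brain and 0, 0 and 0.486 CPM in stroke blood (4.38, SE 1.36, adjusted p = 0.0369). Ms4a3 kept its call in 3 of 6 fits with a library left out, and was lost without stroke blood library 1 or 2 (adjusted p = 0.118 and 0.113) and without brain library 1 (2.61, adjusted p = 0.16). The third, Prtn3 or proteinase 3, had a log2 fold change of -0.29, and its exons overlap those of Plppr3 on the opposite strand.

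Of 7 further secondary granule genes, 6 were tested, none was upregulated and 4 were downregulated in the brain, the opposite direction to Camp, Ngp and Ltf. Chil3, a chitinase-like lectin that classical monocytes also express, had 1504, 2455 and 2570 CPM in the brain libraries against 6052, 5779 and 3933 CPM in stroke blood. Its log2 fold change was -1.42 (SE 0.25, adjusted p = 0.00267 in edgeR). Hp, haptoglobin, was at -1.70 (SE 0.17), Cd177, a neutrophil surface protein, at -1.66 (SE 0.17), and Mmp8, neutrophil collagenase, at -1.79 (SE 0.16), each without overlap between the groups. The same 4 genes were downregulated in the brain against sham blood, from -1.67 for Hp to -2.71 for Chil3.

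Of the 4 tertiary granule genes, Adam8, a metalloprotease, was upregulated by 4.12 (log2, SE 0.34) and Mmp25 by 2.82 (SE 0.88, adjusted p = 0.0367), and none was downregulated. Mmp25 kept its call in 2 of 6 fits with a library left out, those without stroke blood library 1 or 2, and its adjusted p reached 0.119 without stroke blood library 3. Of 17 other mature neutrophil genes, 8 were tested between brain and stroke blood, 4 were upregulated and 1 was downregulated. Il1r2, the decoy receptor for interleukin 1, was upregulated by 4.33 (SE 0.56), Mxd1 by 2.93 (SE 0.26) and G0s2 by 3.83 (SE 0.52), whereas Slpi, an inhibitor of elastase, was at -1.37 (SE 0.26, adjusted p = 0.0042). Il1r2 had 308, 84.5 and 74.1 CPM in brain libraries 1, 2 and 3, so library 1 was again the highest. In stroke versus sham blood no gene of these lists was called.

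**Figure D5:**
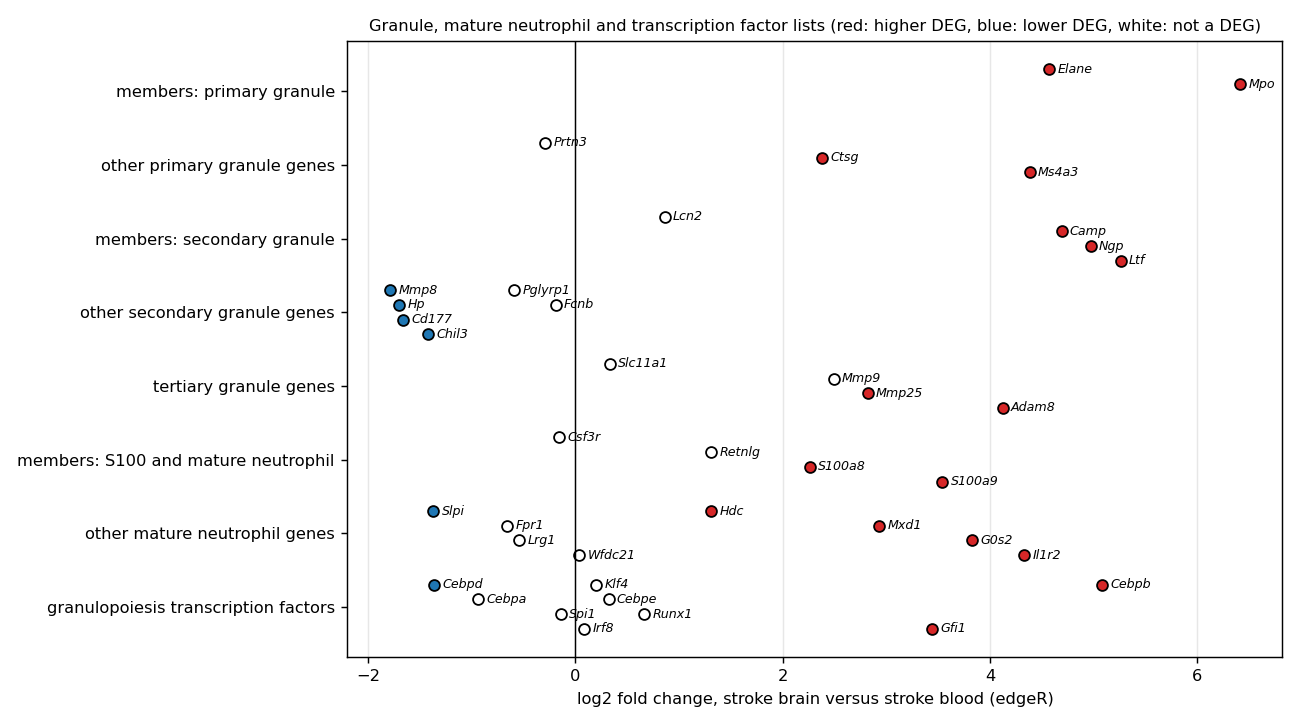
Log2 fold changes between stroke brain and stroke blood of the members and of the tested genes of the other granule, mature neutrophil and transcription factor lists, with a row for each list. Red points were upregulated and blue points downregulated DEGs in edgeR, white points were no DEGs, and the secondary granule members Camp, Ngp and Ltf lie between 4.69 and 5.26, whereas the tested genes of the other secondary granule list lie between -1.79 and -0.19.

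Among 10 transcription factors of granulocyte development, 9 were tested between brain and stroke blood, 2 were upregulated and 1 was downregulated. Cebpb, a C/EBP factor of emergency granulopoiesis and of macrophages, had 957, 1556 and 1455 CPM in the brain libraries against 36.0, 20.0 and 49.1 CPM in stroke blood and 28.9, 33.4 and 17.5 CPM in sham blood. Its log2 fold change over stroke blood was 5.08 (SE 0.37), without overlap. Gfi1, a repressor needed for granulocyte maturation, was upregulated by 3.44 (SE 0.84, adjusted p = 0.0135 in edgeR), from 0 to 0.386 CPM in stroke blood to 2.08 to 2.40 CPM in the brain, and it was not called without stroke blood library 2 (adjusted p = 0.0648). Cebpd was downregulated, at -1.36 (SE 0.22, adjusted p = 0.00202). The exons of Cebpb and Cebpd overlap those of Tmem189 and Spidr on the opposite strand.

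Receptors of the member proteins and genes of the G-CSF signaling pathway were read from the comparison of brain and stroke blood. In it 13.1% of all genes tested were upregulated and 7.86% downregulated. Of 7 receptors, 5 were tested and only Fpr2, a receptor for the cathelicidin peptide, passed, at -1.92 (SE 0.21) in the brain over stroke blood. Tlr4, a receptor for the S100A8/S100A9 heterodimer, had a log2 fold change of 0.36 (SE 0.19, adjusted p = 0.168). Csf3, which encodes G-CSF, was at 0 counts throughout the 9 libraries. Downstream of its receptor, Jak2 was upregulated by 2.30 (SE 0.26) and Socs3, a feedback inhibitor, by 1.20 (SE 0.16), while the other 6 tested genes of 9 in the list did not pass.

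Lists of the cell cycle and of other cell types also differed between the same libraries, some in the direction of the upregulated members and some in the opposite direction. Of 12 cell cycle genes, 11 were upregulated in the brain over stroke blood, and of 4 progenitor markers 3 were, Cd34 by 4.50 (SE 0.32), Kit by 5.51 (SE 0.83) and Flt3 by 1.02 (adjusted p = 0.0178 in edgeR). Flt3 was not called without stroke blood library 1 (0.92) or 3 (0.80) or without brain library 1 (0.88). Of 5 eosinophil markers, 2 were upregulated: Prg2 by 7.61 (SE 0.90), with 141, 34.2 and 25.9 CPM in the brain libraries and at most 0.648 CPM in stroke blood, and Epx by 5.43 (SE 1.39, adjusted p = 0.0169), which was at 0 in all sham blood libraries. Epx kept its call in 3 of 6 fits with a library left out, and was lost without stroke blood library 1 or 2 (adjusted p = 0.0676 and 0.0674) and without brain library 1 (3.76, adjusted p = 0.0586). The eosinophil sum was 194, 101 and 105 CPM in the brain libraries, 3.04, 61.2 and 22.0 CPM in stroke blood and 20.2, 40.2 and 65.4 CPM in sham blood, and in stroke blood it was lowest in library 1, where Retnlg was also lowest. All 5 microglia markers were upregulated in the brain, 7 of 7 erythroid and 7 of 8 platelet markers were downregulated, 2 of 6 T and NK cell markers were upregulated, and none of 4 B cell markers passed. The monocyte list had 1 gene higher, Nr4a1 (2.58), and 1 lower, Ly6c2 (-1.64). None of the 5 basophil and mast cell markers or of the 5 neuron and astrocyte markers had enough counts to be tested. The part of these lists in the values of the members was not tested.

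The promoters of the members are shown because Camp, Ngp and Ltf moved together and C/EBP factors are known regulators of secondary granule genes. Between brain and stroke blood Cebpb was upregulated and Cebpd downregulated. Cebpa (log2 fold change -0.94, SE 0.29, adjusted p = 0.0371 in edgeR) and Cebpe (0.32, SE 0.5, adjusted p = 0.659) were not called. The part of these factors in the levels of the members was not tested. All 10 members were matched to RefSeq promoter windows on GRCm38.p6, of 250 bases before to 50 bases after the gene start, and the letters TTNNGNAA were searched on both strands as the C/EBP motif. They were found in the windows of 6 of the 10 members, beside 40.7% of all 32851 windows. The bases upstream of the gene are printed for the members with more than 1 match in that stretch, from 5′ to 3′ on the strand of the gene, with the matches in capitals. They are Ngp (chr9:110419558-110419746, plus strand), Ltf (chr9:111019042-111019270, plus strand) and S100a9 (chr3:90695722-90695971, minus strand).
Ngp: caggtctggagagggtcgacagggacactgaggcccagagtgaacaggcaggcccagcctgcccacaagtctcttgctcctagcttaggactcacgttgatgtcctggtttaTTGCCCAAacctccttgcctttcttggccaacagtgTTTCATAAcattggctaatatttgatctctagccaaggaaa
Ltf: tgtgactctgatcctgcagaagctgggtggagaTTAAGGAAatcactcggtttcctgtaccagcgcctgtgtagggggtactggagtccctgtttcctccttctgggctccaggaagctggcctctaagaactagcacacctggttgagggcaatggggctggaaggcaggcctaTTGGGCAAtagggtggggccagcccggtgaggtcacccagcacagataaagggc
S100a9: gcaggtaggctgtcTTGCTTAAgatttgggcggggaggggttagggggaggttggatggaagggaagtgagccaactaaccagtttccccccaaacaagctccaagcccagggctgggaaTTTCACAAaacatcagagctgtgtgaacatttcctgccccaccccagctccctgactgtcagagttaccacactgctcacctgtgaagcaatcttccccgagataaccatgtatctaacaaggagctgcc
In Ngp the matches begin 77 and 41 bases before the gene start as the count files place it, in Ltf 196 and 54 bases and in S100a9 236 and 130 bases. The window of Camp held no match, although Camp and Ngp had the highest r of deviations of all pairs of members. GAGGAA, the core of PU.1 sites, was found for 6 of 10 members against 28.3% of all windows, CAACNG, for MYB, for 3 against 35%, and TGTGGT, for RUNX, for 2 against 16.8%, each on both strands. A match is a run of letters and not a bound site, and no binding was measured in these cells.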

How the data were processed

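RNA was measured in 9 libraries of sorted cells, grouped by the tissue and surgery in their labels. Per the study's methods, the authors made cDNA with the SMART-Seq HT kit, tagmented it with Nextera XT, sequenced paired ends, aligned the reads against GRCm38 using HISAT2 and obtained gene counts using HTSeq. The deposited values are raw counts that were not normalized, and versions, annotation release and strand setting were not given in the sources used here. The libraries were amplified by PCR without molecular identifiers, so a floor of 3 counts accounts for counting error alone. Between replicates the chi-square per degree of freedom was 23.9 to 136, beyond sampling noise, and each counted as 1 sample.

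CPM is the count per 1000000 counts of the library. Symbols, exon lengths and exon overlaps came from GENCODE M21, which names 53620 of the 53801 identifiers and places 52019 at identical coordinates. DEGs were called on all genes by the quasi-likelihood test of edgeR 4.0.16 (R 4.3.3, TMM scaling, default low-count filter, only the 2 groups compared), where the p adjusted by Benjamini-Hochberg was below 0.05 and the change exceeded 2-fold. The SE given with a log2 fold change is the absolute log2 fold change divided by the square root of the F statistic of that test. The scripts were tested on simulated data. With 3 against 3 libraries an exact permutation test of 1 gene cannot go below p = 0.1, so none was used. Tables and figures used Python 3.11.15, pandas 2.3.3, numpy 2.4.6 and matplotlib 3.10.9.

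The members, the 19 lists of other genes and the tests were chosen with earlier results of these data known. The text names all 10 members, up to 4 genes per list (the DEGs with the highest mean CPM, or the highest gene where none was a DEG) and for each member the 3 most alike genes. Prtn3, Prss57, Tlr4, Csf3, Lrg1, Wfdc21, Hdc, Cebpa, Cebpe, Siglecf and Il5ra were named outside this rule, after their values were seen. Alternatives were DESeq2 1.42.0, RLE, library size only and upper-quartile scaling, TMM-scaled CPM, no filter, a mean of at least 50 counts, 1 fit of all 9 libraries, the replicate number as a block, other thresholds and each library left out in turn.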

Additional observations from a re-analysis of the deposited data

How the results depend on the processing

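In fits across all genes, brain versus stroke blood gave 2771 DEGs, 1793 at an adjusted p below 0.01, and 2258 to 3014 with 1 library left out. Of the members, 7 were called, 4 at an adjusted p below 0.01, 6 with DESeq2, and 6 to 7 with 1 library left out. Stroke versus sham blood gave 1 DEG, 0 at an adjusted p below 0.01, 127 with DESeq2, 160 without a filter on low counts and 0 to 16 with 1 library left out, and the members called were 0, with 4 without the filter. Brain versus sham blood gave 1748 DEGs, 792 at an adjusted p below 0.01 and 1146 to 1883 with 1 library left out, the lowest without sham blood library 3; of the members 4 were called, 2 at an adjusted p below 0.01 and 3 to 5 with 1 library left out. The causes were not tested.

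Same-numbered libraries come from different mice or pools, and the correlations of their deviations lay between -0.0702 and 0.0663, so the numbers were not taken to pair them. With the replicate number as a block, Retnlg was also called between brain and stroke blood (2.21) and S100a9 between stroke and sham blood (-3.21). Elane lost its call between brain and sham blood (2.97), and the other calls of members stayed the same.

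Of the log2 fold changes of members under an alternative, 390 kept direction and call, 12 lost and 10 gained a call, and 7 turned direction, all in values that did not pass the threshold: between stroke and sham blood Elane without sham library 3 (0.19, range with 1 library left out from -1.25) and Camp without sham library 1 (0.15, from -4.35), and between brain and sham blood S100a8 without sham library 3 (1.28, from -1.86), S100a9 without sham library 1 (-0.056) or 2 (-0.10, up to 2.19) and Retnlg without sham library 1 (-0.095, up to 0.91) or brain library 3 (-0.08). Of the class medians, 72 moved by less than the median standard error of the class and 9 by more, these each with 1 library left out. Scaling by library size only moved the median of all genes by 0.16 for brain versus stroke blood and 0.12 for brain versus sham blood, and upper-quartile scaling by -0.15 for the first; no call of a member changed under them. In the fit of stroke versus sham blood with a mean of at least 50 counts, Mpo had no value. With few or no counts in blood, the sizes of the differences of Camp, Ngp and Ltf between brain and stroke blood rest on stroke blood library 3.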
